A study of Mus musculus with 39 samples.

Results

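Sensory neurons of the dorsal root ganglion (DRG) at the first lumbar level, L1, were compared as 2 sorted populations, TrkC GFPon proprioceptors (TrkC+) and TrkC GFPoff cells (TrkC-). The members were the 5 arrays labelled as wild-type L1 DRG of newborn (p0) mice, 2 of TrkC+ and 3 of TrkC- cells, out of 39 arrays in the series. Every probe set other than the Affymetrix controls was used, which left 45037 probe sets and 18193 genes represented by 1 probe set each. All mice carried the same BAC transgene, in which regulatory sequences of the neurotrophin receptor TrkC (Ntrk3) drive GFP, on a mixed 129/C57Bl6 background, and no other allele or treatment is labelled for these groups. The comparison arrays used here were 6 wild-type p0 arrays of L5 DRG, 3 of each population, and 4 wild-type p0 arrays of pooled lumbar DRG, 2 of each population. The study used about 100 sorted cells for each L1 or L5 array and about 350 for each pooled array. The labels do not say whether the arrays of a group came from separate litters, so the p-values measure the spread between arrays, which may be technical.

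Proprioceptors carry signals from muscle spindles and Golgi tendon organs to the spinal cord, and they depend on the muscle-derived factor NT3, which acts through TrkC. L1 DRG serve mainly trunk muscle, whereas L5 DRG serve the muscles of the hindlimb. The Runt domain transcription factor Runx3 is required for the proprioceptor phenotype, and its relative Runx1 for the phenotype of many nociceptors. The GFPoff gate takes every DRG cell without GFP, so the TrkC- samples hold nociceptors, cutaneous mechanoreceptors and non-neuronal cells together. The study's staining also found TrkC neurons without GFP, and these fall into the GFPoff gate. In such sorted samples, fewer cells of a type and less RNA per cell cannot be told apart.

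Expression values are the linear RMA intensities, differences are given as log2 TrkC+ minus TrkC- with the standard error (SE), and p-values come from limma with Benjamini-Hochberg adjustment over all probe sets. A probe set or gene was called at an adjusted p under 0.05. Over all genes, 11.9% were called higher and 11.8% lower in TrkC+. The L1 arrays were alike in overall brightness, with median log2 values between 6.02 and 6.09. The 2 TrkC+ arrays correlated at 0.988 over all probe sets, the TrkC- arrays at 0.991 or more, and no L1 array correlated above 0.961 with an array of the other population. Of 10 pan-neuronal markers, 2 rose and 2 fell (1 without TrkC+ array 1) in TrkC+, and their summed expression value lay between 58774 and 60450 in all 5 arrays.

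Genes listed as proprioceptor markers were compared first. Of 11 measured proprioceptor markers, 7 rose in TrkC+, none fell, and the median difference was 3.58, against 0.0147 over all genes. The study itself reported Htr2c, Esrrg, Pth1r, Gjd2 and Grm3 as proprioceptor-enriched in cells sorted by this transgene, and Ntrk3 sequences drive the GFP. The rise of these genes is therefore no independent check of the sort. Htr2c, a serotonin receptor, had expression values of 1396 and 1608 in the TrkC+ arrays and of 12.7, 13.0 and 33.1 in the TrkC- arrays. The populations did not overlap, and Htr2c showed the largest rise of any named gene, 6.41 (SE 0.60, adjusted p = 2.33e-05). Pvalb, the calcium-binding protein parvalbumin, stood at 12044 and 10099 in TrkC+ and at 203, 79.2 and 892 in TrkC-. Its difference was 5.50 (SE 0.88, adjusted p = 0.00111), with a wide spread among the TrkC- arrays, of which array 3 was highest. Esrrg, an orphan nuclear receptor, measured 4235 and 3795 in TrkC+ and 76.3, 27.2 and 150 in TrkC-, a rise of 5.89 (SE 0.52, adjusted p = 1.55e-05). Ntrk3 itself, whose regulatory sequences drive the GFP used for sorting, measured 2754 and 2883 against 178, 145 and 304, a rise of 3.83 (SE 0.30, adjusted p = 7.79e-06). Pth1r, the receptor of parathyroid hormone, rose by 4.83, Gjd2, the neuronal gap junction protein connexin 36, by 3.58, and Grm3, a metabotropic glutamate receptor, by 2.43.

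The other 4 measured markers did not pass the test on the probe set used for the gene. Gabrg1, a GABA-A receptor subunit, measured 173 and 339 in TrkC+ and 128, 82.6 and 136 in TrkC-, a difference of 1.10 (SE 0.46, adjusted p = 0.136). The Gabrg1 populations did not overlap, but the TrkC+ arrays lay far apart. Calb2, the calcium-binding protein calretinin, pointed the other way, at 48.7 and 47.4 in TrkC+ against 330, 123 and 466 (difference -2.47, adjusted p = 0.0678). Whrn, a scaffold protein, gave a difference of 0.12 on its brightest probe set, although 2 of its other 3 probe sets rose by 1.66 and 1.61. Etv1 and Spp1 had no probe set assigned to 1 gene and were not measured.

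Runx3 depended on the probe set in the same way. The probe set used for the gene, the one with the higher mean log2 value over the 11 L1 and L5 arrays, was dim in both populations, at 102 and 86.1 in TrkC+ and 73.9, 69.0 and 86.6 in TrkC- (difference 0.30, adjusted p = 0.194). The other Runx3 probe set, which was the brighter by far in TrkC+ cells, measured 602 and 688 in TrkC+ and 19.5, 17.95 and 29.7 in TrkC-, a rise of 4.88 (SE 0.33, adjusted p = 2.73e-06). Runx1 was its mirror image, with 109 and 28.7 in TrkC+ against 3196, 2622 and 2084 in TrkC-, a difference of -5.54 (adjusted p = 5.05e-05). The promoters of Runx3 and of the nociceptor channel gene Trpv1 are shown because both hold the Runt binding letters TGTGGT in the 250 bases before a RefSeq start. The sequences are from RefSeq on GRCm38.p6, 5′ to 3′ on the gene's strand, and capitals mark TGTGGT or its reverse complement ACCACA. Runx3 has a second RefSeq start, and its window at chr4:135152295-135152544 holds no match and is not printed. The window shown for Runx3 lies on the plus strand at chr4:135120395-135120644, and Trpv1 on the plus strand at chr11:73233899-73234148.
Runx3: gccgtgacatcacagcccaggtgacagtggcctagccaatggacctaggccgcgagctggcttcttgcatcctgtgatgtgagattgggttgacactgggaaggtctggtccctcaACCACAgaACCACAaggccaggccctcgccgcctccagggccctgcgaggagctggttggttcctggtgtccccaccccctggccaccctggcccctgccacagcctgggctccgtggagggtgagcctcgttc
Trpv1: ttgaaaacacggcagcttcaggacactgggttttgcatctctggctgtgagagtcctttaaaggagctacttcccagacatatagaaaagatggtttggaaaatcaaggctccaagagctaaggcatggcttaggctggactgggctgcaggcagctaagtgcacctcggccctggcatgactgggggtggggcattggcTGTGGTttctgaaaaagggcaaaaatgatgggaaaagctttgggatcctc
The 2 Runx3 matches end 128 and 120 bases before the start, and the Trpv1 match ends 44 bases before it. On both strands, TGTGGT was found in 13.7% of the 14452 measured genes with such a window, in 12.7% of genes called higher in TrkC+ and in 12.8% of genes called lower, so these letters were about as frequent on both sides of the comparison. Of 10 nociceptor markers with a window 1 held it, and of 9 proprioceptor markers 1 did.

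The nociceptor markers fell together. Of 14 measured members, 12 fell in TrkC+ and none rose (median difference -1.58), while Trpm8 and Adcyap1 did not pass the test. Scn10a, a voltage-gated sodium channel gene (Nav1.8), measured 21.1 and 16.4 in TrkC+ and 1271, 1115 and 1225 in TrkC-, a difference of -6.02 (SE 0.49, adjusted p = 8.83e-06). Scn11a, the related channel Nav1.9, measured 551 and 168 against 14572, 13237 and 13902, a difference of -5.51 (adjusted p = 3.08e-06). Trpv1, the heat and capsaicin channel, measured 55.1 and 32.1 against 1388, 1399 and 1520, a difference of -5.09 (adjusted p = 4.95e-07). These 3 channel genes separated the populations completely, and each was higher in TrkC+ array 1 than in array 2. Th, tyrosine hydroxylase, fell by 3.57, Calcb, which encodes a CGRP peptide, by 2.96, and P2rx3, an ATP-gated channel, by 1.45 on the log2 scale. The peptide gene Tac1 and the intermediate filament gene Prph remained bright in both populations, with Tac1 at 7775 and 7610 in TrkC+ against 10687, 11182 and 10021 in TrkC-. Their falls were small, 0.47 (adjusted p = 0.04) and 0.57 (adjusted p = 0.0082) on the log2 scale. Prdm12, Calca and Mrgprd were not measured.

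**Figure D1:**
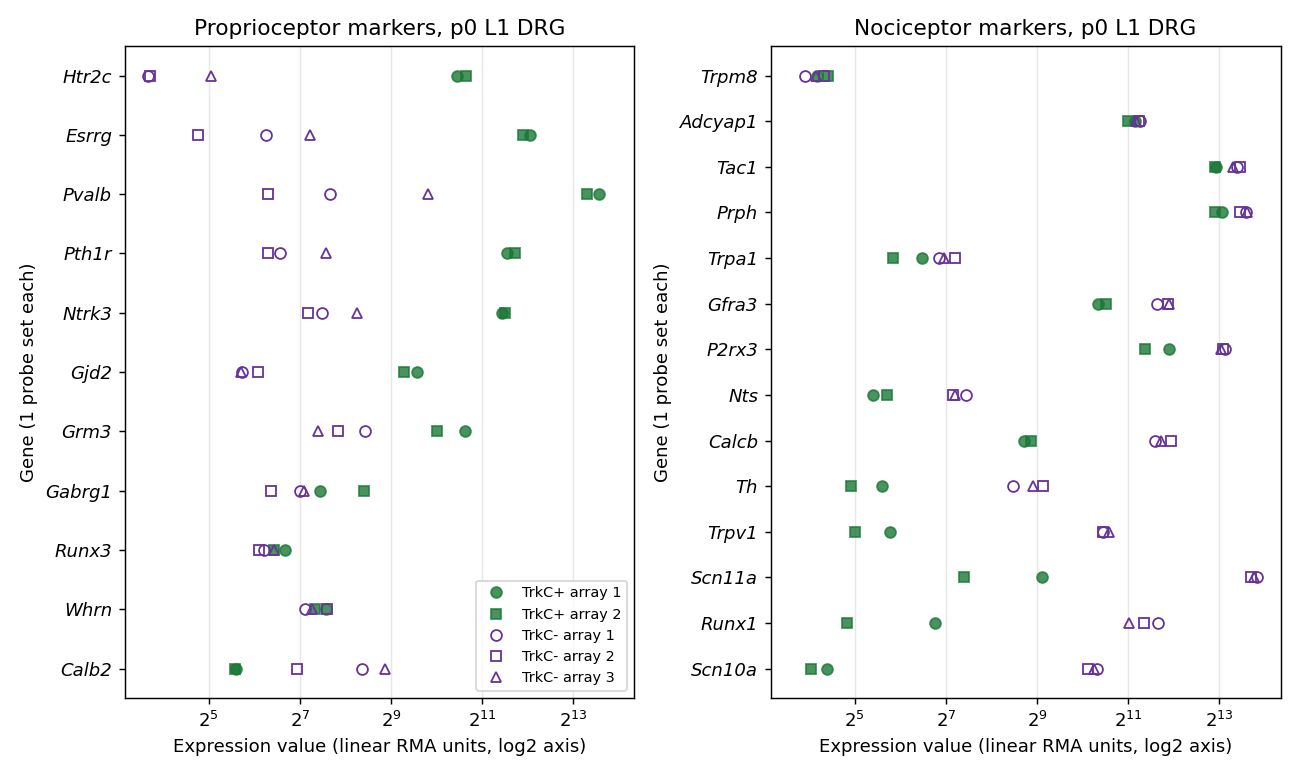
Expression value of each measured proprioceptor marker (left) and nociceptor marker (right) in each L1 array, on a log2 axis of linear RMA units, with filled green symbols for the 2 TrkC+ arrays and open purple symbols for the 3 TrkC- arrays. The populations lie far apart for Htr2c (1396 and 1608 against 12.7, 13.0 and 33.1) and for Scn10a (21.1 and 16.4 against 1271, 1115 and 1225), and overlap or nearly meet for Runx3 on this probe set and for Adcyap1.

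Small amounts of the other population's markers varied between arrays. Of the 7 markers that rose, 5 were highest among the TrkC- arrays in array 3, and of the 12 nociceptor markers that fell, 9 were higher in TrkC+ array 1 than in array 2. Without both of these arrays, a choice made after seeing the data, 2234 probe sets were called higher and 2037 lower, but the 7 and 9 of the same 2 marker lists still passed. Across the 208 probe sets called at least 8-fold lower, TrkC+ array 1 was not the higher array. Their median log2 deviation from the group mean was -0.0126 in TrkC+ array 1 and 0.0126 in TrkC+ array 2. For the 158 called at least 8-fold higher, it was 0.182 in TrkC- array 3, -0.111 in array 1 and -0.0493 in array 2. What this variation contributes to the fold changes was not tested.

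Across the array, 4065 probe sets (9.03%) were called higher in L1 proprioceptors and 4018 (8.92%) lower. At the thresholds of the study, 2-fold or more with a p no higher than 0.02 before adjustment, 1855 probe sets (4.12%) were enriched in TrkC+ and 2016 (4.48%) in TrkC-. In 23.6% of probe sets both TrkC+ arrays lay above all TrkC- arrays, and in 21.8% below. The smallest two-sided p that an exact permutation test allows for 2 against 3 arrays is 0.2, so single genes rest on the limma fit. Called differences of at least 8-fold were found for 158 probe sets higher and 208 lower.

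Among the genes with the largest rises, Reg3b, a secreted lectin, measured 914 and 618 in TrkC+ and 15.6, 12.9 and 11.7 in TrkC-, a rise of 5.82 (SE 0.32, adjusted p = 7.61e-07). E430016F16Rik, a transcript with no gene name, had the smallest adjusted p of the named genes, with 6371 and 6389 against 114, 124 and 132 (5.69, SE 0.13, adjusted p = 6.84e-09). Pappa2, a protease that cleaves an IGF-binding protein, rose by 5.60 (SE 0.41), Fgf9, a secreted growth factor, by 5.35 (SE 0.32) and Wnt7a, a secreted Wnt ligand, by 4.95 (SE 0.36). Gpat3, an enzyme of glycerolipid synthesis, and Lancl3 rose by 5.43 and 5.13. No TrkC- array reached a value above 104 for any of these 5 genes.

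The largest falls were larger than the largest rises. Gna14, a G protein alpha subunit, measured 15.2 and 23.8 in TrkC+ and 3423, 3523 and 3440 in TrkC-, a difference of -7.51 (SE 0.64, adjusted p = 1.31e-05). Acpp, prostatic acid phosphatase, an ectonucleotidase of nociceptors, measured 103 and 87.9 against 9330, 8575 and 9113, a difference of -6.56 (SE 0.37, adjusted p = 7.77e-07). Synpr, the vesicle protein synaptoporin, measured 136 and 75.5 against 8460, 7372 and 8681, a difference of -6.33 (SE 0.23, adjusted p = 1.34e-07). For all 3 genes the TrkC- arrays lay close together and both TrkC+ arrays far below them. The gene of caveolin 1, Cav1 (-6.99), also fell, as did Tmem45b (-6.81), Nwd2 (-6.73), the phosphodiesterase gene Pde1c (-6.29) and the water channel gene Aqp1 (-5.99). Cav1 and Aqp1 are also known from endothelial cells, and the endothelial markers are given with the other cell types.

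Receptors for growth factors divided the populations sharply. Of 18 measured neurotrophin, GDNF and cytokine receptors, Ntrk3 alone rose and 10 fell (median -0.66), although 2 members were higher with centred array medians or quantile normalization. Ret, the signaling receptor of the GDNF family, measured 434 and 444 in TrkC+ and 7353, 7363 and 7088 in TrkC-, a difference of -4.05 (SE 0.30, adjusted p = 5.18e-06). Its coreceptor Gfra1 fell by 3.89, Gfra3 by 1.37 and Gfra2 by 0.83 on the log2 scale. Osmr, the oncostatin M receptor, fell by 4.75, Kit by 2.14 and Igf1r by 1.77 on the log2 scale. Ntrk2, the receptor TrkB, differed among its 8 probe sets. The brightest measured 599 and 444 against 652, 891 and 1031 (difference -0.71, adjusted p = 0.0369), while another measured 28.4 and 20.2 against 946, 1177 and 1115 (difference -5.49, adjusted p = 5.01e-06). Which transcript each probe set detects was not examined. Among 7 markers of cutaneous mechanoreceptors, Ret, Gfra2, Ntrk2 and the calcium channel gene Cacna1h fell. The transcription factor genes Shox2, at 2641 and 2935 against 213, 373 and 315, and Maf rose, by 3.25 and 1.25.

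Of 42 transcription factors of sensory identity, 12 rose and 14 fell, each share above the 11.9% and 11.8% of all genes. Meis2, a homeobox gene, measured 4968 and 5305 in TrkC+ against 762, 686 and 522, a rise of 2.98 (SE 0.19, adjusted p = 1.59e-06), and its relative Meis1 measured 53.6 and 65.2 against 931, 688 and 847, a difference of -3.79 (SE 0.33, adjusted p = 1.37e-05). The 2 Meis genes thus marked opposite populations, as Runx1 and the second Runx3 probe set did. The falls included Prdm8 (-6.05), the LIM domain-binding factor Ldb2 (-6.29) and Insm2 (-5.32). Pou4f1, expressed by most sensory neurons, fell by 0.91 on the log2 scale. Of 28 Hox genes, which encode position along the body axis, 5 rose and 5 fell, 17.9% each and not far from the shares of all genes. Hoxc8 rose most, at 1759 and 2017 against 228, 205 and 264 (3.03, SE 0.22, adjusted p = 3.58e-06), followed by Hoxc10 at 2.28 and Hoxc4 at 1.19. The members called higher were Hoxc4, Hoxc8, Hoxc9, Hoxc10 and Hoxa5, whereas those called lower were of the Hoxb cluster (Hoxb3, Hoxb5 and Hoxb6) and of the Hoxd cluster (Hoxd3 and Hoxd8).

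Ion channel genes were called in both directions, beside 11.9% of all genes higher and 11.8% lower. The shares higher and lower were 29.5% and 31.8% for potassium, 26.7% and 40% for calcium and 23.1% and 34.6% for sensory transduction channels. Of 12 sodium channel genes 4 rose (33.3%) and 2 fell (16.7%), the falls near the share of all genes. Scn1a, encoding Nav1.1, measured 5475 and 4498 against 420, 331 and 455 (rise of 3.64, SE 0.25, adjusted p = 2.55e-06), and Scn2a, Scn8a and Scn3a rose by 2.50, 1.28 and 0.71, whereas the channels that fell were Scn10a and Scn11a. Of 44 potassium channel genes 13 rose (8 without TrkC+ array 2) and 14 fell. Kcnk1, a background channel, rose by 4.78, Kcnq3, a subunit of the M-current, by 4.21, Kcna1, encoding Kv1.1, by 2.86 and Kcns1 by 2.65. Kcnc2, encoding Kv3.2, measured 120 and 97.2 against 1607, 1492 and 1648 and fell by 3.87 on the log2 scale (SE 0.13, adjusted p = 1.3e-07), and Kcnip1 fell by 2.64. Of 15 calcium channel genes 4 rose (2 without TrkC+ array 1), among them the auxiliary subunits Cacng5 (1.69) and Cacng2 (1.41), and 6 fell, among them Cacna1e (-2.19), Cacna1c (-1.94) and Cacna2d2 (-1.64). Of 26 sensory transduction channels 6 rose and 9 fell. P2rx1, an ATP-gated channel, rose by 3.25 at 326 and 459 against 39.6, 39.1 and 43.0, while the serotonin-gated channel genes Htr3a and Htr3b fell by 3.53 and 3.65 on the log2 scale.

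Transmitter receptors were called in both directions as well, beside the 11.9% higher and 11.8% lower of all genes. GABA-A and glycine receptors stood at 26.7% higher and 20% lower, and glutamate receptors at 33.3% and 23.8%. Peptide and amine receptors stood at 26.2% and 31%. Of 15 GABA-A and glycine receptor subunits 4 rose and 3 fell (1 without TrkC+ array 1). Gabra5 measured 1525 and 1453 in TrkC+ against 127, 114 and 142 in TrkC- (3.55, SE 0.16, adjusted p = 2.61e-07), and Glrb, the beta subunit of glycine receptors, measured 2849 and 2619 against 327, 465 and 619 (2.59, SE 0.24, adjusted p = 2.47e-05). Both subunits separated the populations, and Gabrb2 and Gabra3 also rose, by 1.73 and 0.98. Of 21 glutamate receptors 7 rose and 5 fell. The rises included Grm3, Grid1 (2.37) and Grm8 (2.03), and the falls Gria1 (-3.19), Grin3a (-2.01) and Grik1 (-1.87). Of 42 peptide and amine receptors 11 rose and 13 fell, with Tacr3, the neurokinin B receptor, up by 2.72 and Ptgir, the prostacyclin receptor, at 24.2 and 30.7 against 446, 502 and 548 (difference -4.19, adjusted p = 1.34e-07). Npy2r, a neuropeptide Y receptor, and Drd1, a dopamine receptor, fell by 3.98 and 3.67 on the log2 scale.

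Among 20 sensory neuropeptides 4 rose (20%) and 9 fell (45%), beside 11.9% and 11.8% of all genes. Bdnf, a neurotrophin, measured 575 and 671 against 181, 168 and 160, a rise of 1.88 (SE 0.16, adjusted p = 1.53e-05), and Grp, gastrin-releasing peptide, measured 109 and 317 against 41.3, 50.6 and 38.0, a rise of 2.11 (SE 0.34, adjusted p = 0.00128). The 2 TrkC+ arrays differed widely for Grp. The falls included Cartpt (-3.99), Nmb (-3.14) and Nts (-1.71). Of 42 genes of transmitter release 9 rose (21.4%) and 15 fell (35.7%). The synaptotagmin Syt2, a fast calcium sensor, rose by 2.48, the SNARE protein Snap25 by 1.10 and the vesicle protein Sv2b by 1.94, whereas the synaptotagmins Syt7 (-3.25) and Syt9 (-2.64) and the priming factor Unc13c (-3.90) fell. Of 29 regulators of G protein signaling, G protein subunits and adenylyl cyclases 7 rose (4 without TrkC+ array 1) and 11 fell, led by Rgs20 (3.68) and by Gna14, Rgs5 (-5.62) and Rgs8 (-4.87).

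Of 58 axon guidance genes 19 rose (32.8%) and 17 fell (29.3%), beside 11.9% and 11.8% of all genes. Dcc, a netrin receptor, measured 1009 and 974 in TrkC+ and 17.8, 19.8 and 22.6 in TrkC-, a rise of 5.63 (SE 0.19, adjusted p = 1.3e-07). Sema3a, a repellent ligand, measured 1755 and 1052 against 53.8, 61.3 and 43.1 (4.70, SE 0.25, adjusted p = 6.83e-07), and Slit2, a ligand of Robo receptors, measured 5027 and 4788 against 276, 214 and 359 (4.15, SE 0.23, adjusted p = 7.07e-07). The ephrin receptors Epha3 and Epha4 rose by 4.69 and 4.45, whereas Unc5d, another netrin receptor, fell by 4.70 on the log2 scale, from 583 to 720 in TrkC- cells. The netrin receptors Dcc and Unc5d were therefore high in opposite populations. Of 52 adhesion molecules 22 rose (42.3%) and 10 fell (19.2%), with a median of 0.42. The protocadherins Pcdh8, Pcdh7 and Pcdh19 rose by 3.81, 3.18 and 2.48, Chl1, an adhesion protein of the L1 family, fell by 4.55 and the cadherin Cdh9 by 3.19 on the log2 scale. Of 34 growth factors and trophic ligands 12 rose (35.3%) and 6 fell (17.6%). Igf1 was among the rises, with populations that nearly met (1304 and 733 against 239, 684 and 234, adjusted p = 0.031) and a call lost under 6 of 21 alternatives.

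On the probe sets used, genes of the cytoskeleton rose by at most 3.27 and those of respiration by at most 1.49. Of 27 neurofilament, tubulin and related genes 9 rose (33.3%) and 3 fell (11.1%), beside 11.9% and 11.8% of all genes, so the falls were near that share. Tuba8, a tubulin, rose most, at 755 and 411 against 59.9, 57.7 and 55.45 (3.27, SE 0.26, adjusted p = 6.96e-06). Nefh, the heavy neurofilament chain of large axons, measured 10403 and 10797 against 3294, 4201 and 3942, a rise of 1.48 (SE 0.15, adjusted p = 4.18e-05). Nefm rose by 1.59. Gap43, a growth cone protein, measured 3969 and 3434 against 8558, 7473 and 7981 and fell by 1.11 on the log2 scale (adjusted p = 0.00114). Among 39 genes of oxidative phosphorylation, which encode subunits of the respiratory chain and ATP synthase, 32 (82.1%) rose and none fell. In all 39 both TrkC+ arrays lay above all TrkC- arrays, against 23.6% of all probe sets. The median difference was 0.52. Atp5g1, a subunit of ATP synthase, measured 3759 and 3238 against 1320, 1287 and 1118, a rise of 1.49 (SE 0.13, adjusted p = 1.41e-05). The complex I genes Ndufa5 and Ndufs1 rose by 0.98 and 0.97 and Uqcrc2 of complex III by 0.81. The number of oxidative phosphorylation genes called varied from 17 to 25 when 1 of the 5 L1 arrays was left out, 17 without TrkC+ array 1 and 19 without TrkC+ array 2, and was 11 without both TrkC+ array 1 and TrkC- array 3. In each of those cases none was called lower.

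The lists of ERK targets, immediate early genes and sterol synthesis leaned towards the TrkC- cells, beside the 11.9% higher and 11.8% lower of all genes. Of 20 ERK targets and feedback inhibitors 2 rose and 8 fell (median -0.40), with Dusp6, an ERK phosphatase, at 82.0 and 83.9 against 435, 216 and 740 and Spry1, a feedback inhibitor, higher in TrkC+ by 1.62. Of 17 immediate early genes, which respond quickly to activity and to tissue dissociation, 6 fell and none rose (median -0.58). Fos measured 3678 and 4126 against 7591, 8447 and 9292 and fell by 1.11 on the log2 scale (adjusted p = 0.000504). Without TrkC+ array 1, 2 immediate early genes were called lower, and without both TrkC+ array 1 and TrkC- array 3 only 1 was. The ERK genes that fell numbered 4 without both arrays, and 1 of the 2 rises was lost without either. Of 18 genes of sterol synthesis 6 fell and none rose, with Lss at 374 and 577 against 929, 848 and 826. The count of falls was 1 without TrkC+ array 1, 2 without TrkC- array 3 and 0 without both, and 1 sterol gene was called higher under several other settings, quantile normalization and centred array medians among them. Calcium-binding proteins were instead called in both directions. Of 21 members 5 rose (23.8%), among them Vsnl1 (3.02), and 6 fell (28.6%), among them S100a6 (-4.45), at 157 and 154 against 3460, 3025 and 3787.

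**Figure D2:**
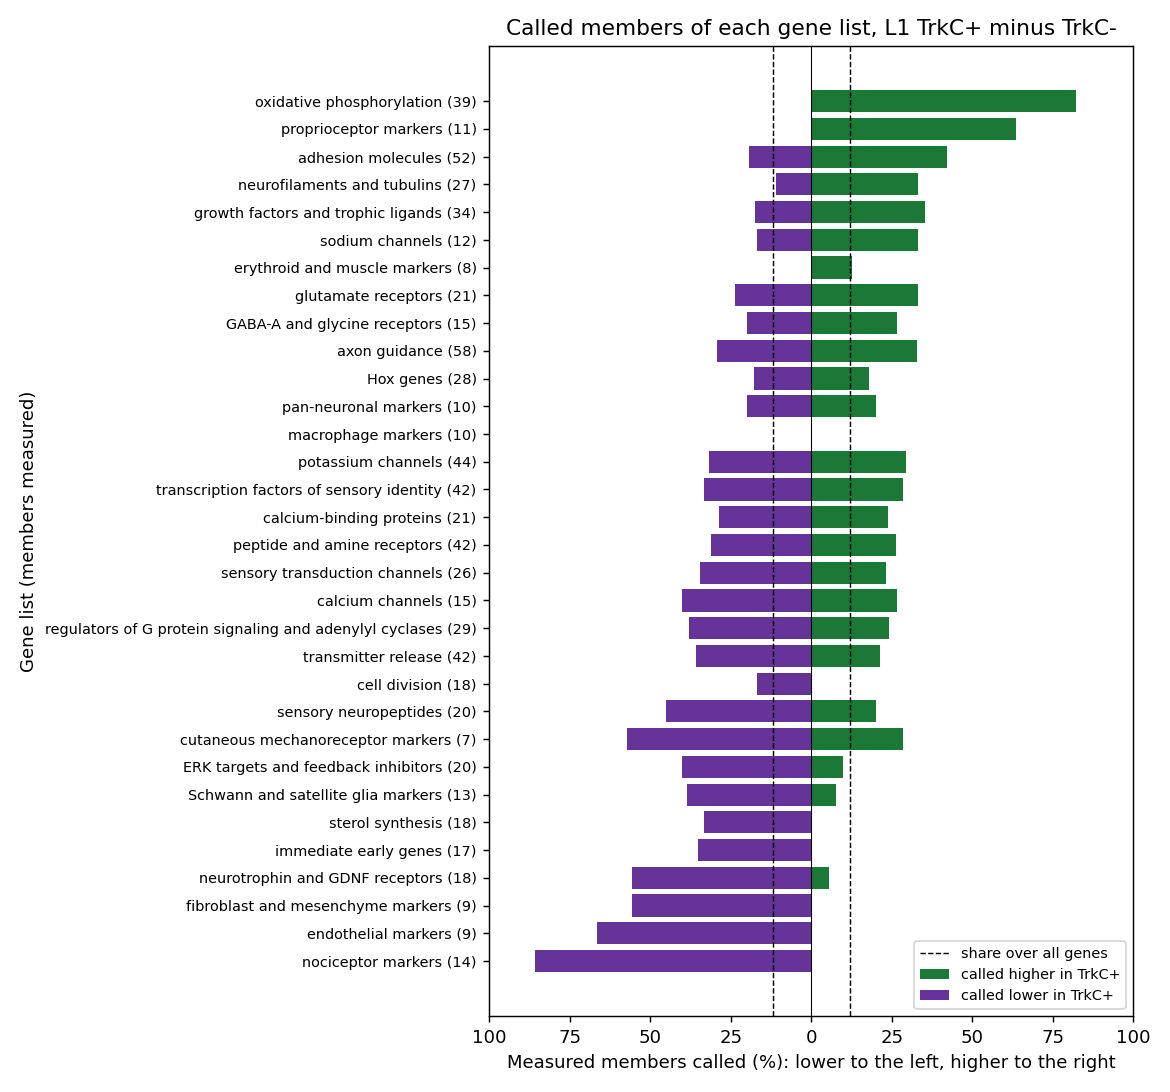
Share of the measured members of each of 32 gene lists called higher (green, to the right) and lower (purple, to the left) in L1 TrkC+, with the number of members measured in parentheses and dashed lines at the shares of all genes, 11.9% higher and 11.8% lower. Oxidative phosphorylation (82.1%) and proprioceptor markers (63.6%) reach farthest to the right, and nociceptor markers (85.7%) and endothelial markers (66.7%) farthest to the left.

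Markers of other cell types moved with the comparison. Of 9 endothelial markers 6 fell in TrkC+ and none rose, and their summed expression value was 592 and 549 in TrkC+ against 1106 to 1584 in TrkC-. Tek, an endothelial receptor, measured 17.9 and 22.4 against 182, 95.1 and 106, and Cdh5, the endothelial cadherin, fell by 2.52 on the log2 scale. Of 9 fibroblast and mesenchyme markers 5 fell (2 without TrkC+ array 2, 3 without TrkC- array 3), with sums of 1936 and 1641 against 6679 to 7344, of which Dcn, the proteoglycan decorin, made up a large part (117 and 53.4 against 3102, 2737 and 2147). Of 13 Schwann and satellite glia markers 5 fell and S100b rose, and without TrkC+ array 2 the falls numbered 2. Pmp22, a myelin protein, measured 1110 and 729 against 6553, 6571 and 6490, and Sox10, the defining glial transcription factor, 566 and 463 against 902, 905 and 929. The 2 dimmer Sox10 probe sets were not called, with differences of -0.054 (adjusted p = 0.867) and -0.0019 (adjusted p = 0.995). None of 10 macrophage markers was called (4 were lower without TrkC- array 2), but their sum was 2088 in TrkC- array 1 against 379 and 710 in the other TrkC- arrays and 392 and 410 in TrkC+. Csf1r, the macrophage growth factor receptor, reached 934 in that array. Of 18 cell division genes 3 (16.7%) fell, near the 11.8% of all genes, and the count was 1 without TrkC+ array 1 or TrkC- array 3, 0 without both and 5 without L5 TrkC- array 1. Mki67 was at 23.4 and 57.2 against 327, 146 and 344. Of 8 erythroid and muscle markers 1 rose, Myh8, whose call was lost without TrkC+ array 2, and none fell. No marker is at 0 on these arrays, where unbound probes also give a signal. The part of non-neuronal cells in the genes called lower was not tested.

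**Figure D3:**
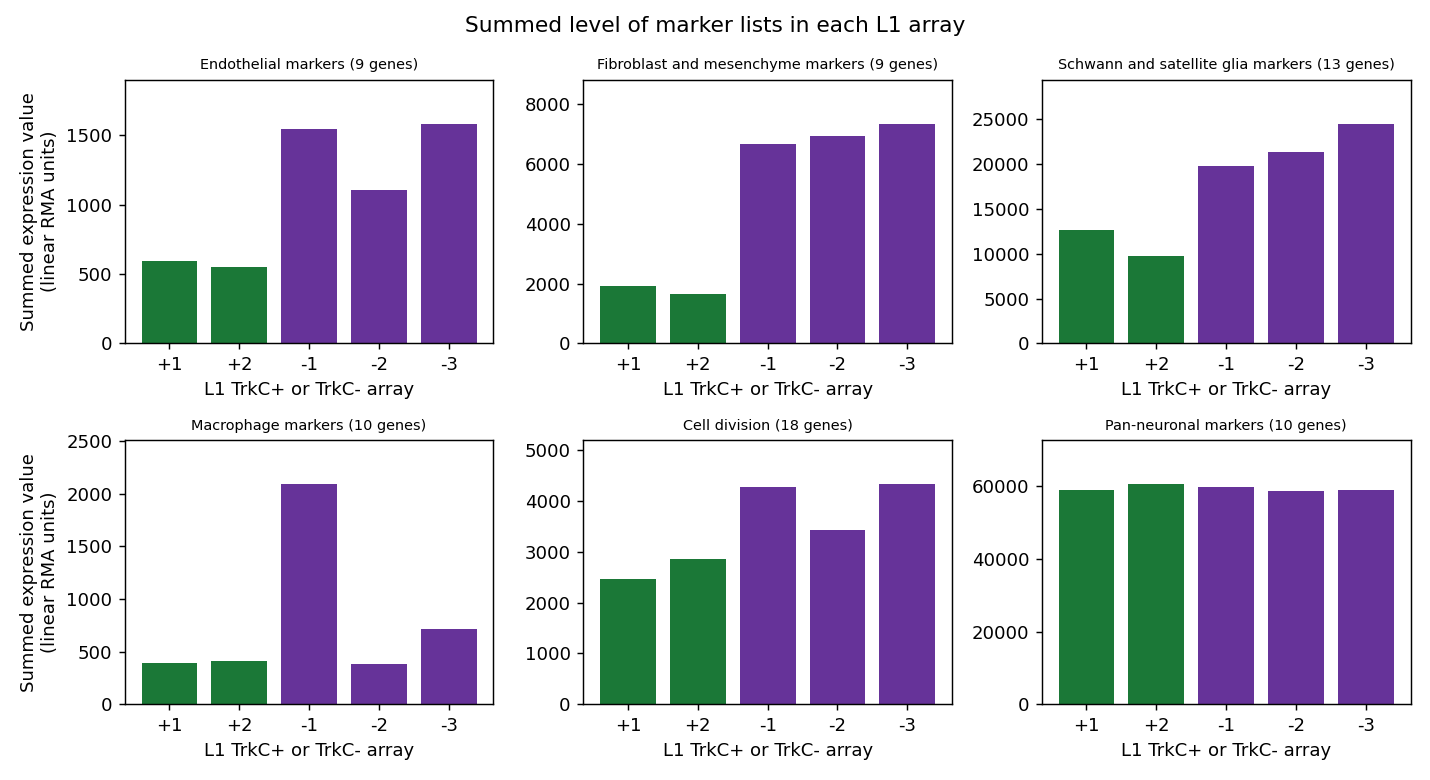
Summed linear RMA expression value of 6 marker lists in each L1 array, with green bars for TrkC+ arrays 1 and 2 and purple bars for TrkC- arrays 1 to 3, each axis starting at 0. The endothelial, fibroblast and glial sums are lower in both TrkC+ arrays than in every TrkC- array, the macrophage sum stands out in TrkC- array 1 (2088), and the pan-neuronal sum stays between 58774 and 60450.

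The same comparison in other ganglia used different arrays. L1 and L5 were fitted together and share an estimate of spread for each probe set, so their calls are not independent. At L5, 4464 probe sets (9.91%) were called higher and 4518 (10.0%) lower in TrkC+. Of the probe sets higher at L1, 2953 were also higher at L5, which is 72.6% of the L1 set and 66.2% of the L5 set. Of those lower at L1, 3041 were also lower at L5, 75.7% of the L1 set and 67.3% of the L5 set, and 15 probe sets were called in opposite directions. In wild-type pooled lumbar DRG 2305 probe sets (5.12%) were higher and 1727 (3.83%) lower. Of these, 1707 of the higher and 1300 of the lower probe sets were shared with L1. The spread behind the pooled calls was estimated with the mutant pooled arrays included. Over all probe sets the L1 differences correlated with those at L5 at 0.857 and with those of pooled DRG at 0.769, across probe sets measured on separate arrays.

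A direct test of whether the TrkC+ minus TrkC- difference was unequal at L1 and L5 called 30 probe sets (0.0666%), of which 14 were more positive at L1 and 16 more negative. At an unadjusted p under 0.05 the number was 3061. The 30 probe sets covered 24 named genes. For 16 probe sets the 2 levels were called different in TrkC+ cells only, for 12 in TrkC- cells only and for 2 in neither. A level contrast that was not called does not show that the levels were equal. The count depended on single arrays, at 14 without L1 TrkC+ array 1, 13 without L1 TrkC- array 3, 7 without L5 TrkC- array 1 and 2 without both L1 TrkC+ array 1 and L1 TrkC- array 3. The difference between levels kept its sign under all alternatives for the genes named here, and Vip and Synpr were called under all of them. The contrasts of Cpne4 (14 of 20), Flrt2 (15), Prr15 (12), Palmd (10), Dgkk (9), Slc6a4 (9) and Fgf5 (7) also lost their call under many alternatives. Those of Nt5el and Spata21 lost it under 10 and 6 of 19.

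Vip, the vasoactive intestinal peptide, differed most. It measured 36.1 and 33.9 in L1 TrkC+ cells and 17.6, 15.9 and 20.8 in L1 TrkC- cells. In L5 TrkC+ cells it measured 2791, 2280 and 1138, and in L5 TrkC- cells 19.9, 21.1 and 19.7. Vip was thus bright in L5 proprioceptors and near the bottom of the scale in the other 3 groups. The TrkC+ minus TrkC- difference was 0.96 at L1 and 6.58 at L5, and the difference between them -5.62 (SE 0.40, adjusted p = 0.000945). In pooled lumbar DRG it was 4.30. The 250 bases before the RefSeq start of Vip, on the plus strand of GRCm38.p6 at chr10:5638968-5639217, are shown because it is the gene with the largest contrast between levels. The motif searched was TGACGTCA, a cAMP response motif that is its own reverse complement and was found in 2.5% of the 14452 genes. The Vip window holds no exact match to it and so has no capitals. It does hold tgacgtct, which differs from the motif in the last letter alone, and such near matches were not counted.
Vip: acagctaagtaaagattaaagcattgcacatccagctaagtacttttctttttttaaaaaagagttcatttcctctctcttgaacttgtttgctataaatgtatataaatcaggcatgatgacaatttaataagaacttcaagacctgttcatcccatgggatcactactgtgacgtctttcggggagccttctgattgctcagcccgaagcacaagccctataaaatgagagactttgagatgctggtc

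A group of genes was lower in L1 than in L5 proprioceptors. Synpr measured 136 and 75.5 in L1 TrkC+ cells but 1325, 1577 and 1050 in L5 TrkC+ cells, while the TrkC- cells of both levels lay between 7372 and 8681. The TrkC+ minus TrkC- difference was therefore -6.33 at L1 and -2.65 at L5 (L1 minus L5 -3.67, SE 0.32, adjusted p = 0.00309). Doc2b, a calcium sensor of vesicle release, measured 109 and 74.8 in L1 TrkC+ and 1355, 1046 and 611 in L5 TrkC+ cells. Doc2b thus fell in TrkC+ at L1 (-1.86) and rose at L5 (2.12), with a difference of -3.97 (SE 0.59, adjusted p = 0.0476) that was not called under 11 of 20 alternatives. Gpc5, a glypican, measured 160 and 103 in L1 TrkC+ against 926, 1000 and 936 in L1 TrkC- cells, and 659, 696 and 409 against 659, 587 and 651 at L5. Dgkk, a diacylglycerol kinase, also had opposite signs at the levels, -1.68 and 1.42. Trhr, the receptor of thyrotropin-releasing hormone, was near the bottom of the scale in both L1 populations and reached 72.8, 62.8 and 73.2 in L5 TrkC+ cells. Cpne4 fell more at L1 (-4.52) than at L5 (-2.49), as did Palmd (-2.36 and -0.48). From arrays and in situ hybridization, the study reported that Gabrg1 increases from L1 to L5 in proprioceptors. The study's p0 arrays for this are the L1 and L5 arrays used here. For Gabrg1, the TrkC+ minus TrkC- difference at L1 minus that at L5 was -2.43 (limma adjusted p = 0.285). On its other probe set it was -2.57 (adjusted p = 0.179), and neither was called. This contrast also holds the spread of the TrkC- arrays, so it is no direct test of the level difference within proprioceptors that the study reported.

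Other genes differed through the TrkC- cells. Bdnf measured 575 and 671 in L1 and 565, 485 and 464 in L5 TrkC+ cells, a level difference of 0.30 that was not called (adjusted p = 0.618). In TrkC- cells it measured 181, 168 and 160 at L1 and 948, 692 and 722 at L5, a level difference of -2.20 (adjusted p = 0.00039). The direction of the Bdnf difference was therefore opposite at the levels, 1.88 at L1 and -0.63 at L5 (adjusted p = 0.0105), and the difference of differences was 2.51 (SE 0.22, adjusted p = 0.00309). Slc6a4, the serotonin transporter, stood at 194, 193 and 211 in L5 TrkC- cells and between 32.6 and 56.8 in the arrays of the other 3 groups. Adgrl2, an adhesion G protein-coupled receptor, measured 346, 488 and 461 in L1 TrkC- cells and 1840, 1442 and 1450 in L5 TrkC- cells, and was at least 2522 in every TrkC+ array. Fgf5, a growth factor, fell at L1 (-1.92) and differed little at L5 (-0.16), with a level difference of 0.94 in TrkC- cells (adjusted p = 0.0275) and of -0.82 in TrkC+ cells (adjusted p = 0.0598). Prr15 was higher in TrkC+ at L1 (1.08) and lower at L5 (-1.98). Kcng1, a potassium channel subunit, fell less at L1 (-1.61) than at L5 (-3.47).

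A last group was highest in L1 proprioceptors. Crhr2, a receptor of the corticotropin-releasing hormone family, measured 180 and 246 in L1 TrkC+ cells, 64.7, 74.6 and 64.2 in L5 TrkC+ cells, and at most 55.6 in the TrkC- arrays. Its differences were 2.55 at L1 and 0.47 at L5 (adjusted p of the difference between them 0.00775). Epha3 measured 996 and 1021 in L1 and 408, 354 and 381 in L5 TrkC+ cells, with differences of 4.69 and 2.48 (adjusted p = 0.0484), a contrast not called under 12 of 20 alternatives. Spata21 followed the same order, with 169 and 226 in L1 TrkC+, 44.4, 62.6 and 53.3 in L5 TrkC+ and at most 35.2 in the TrkC- arrays.

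**Figure D4:**
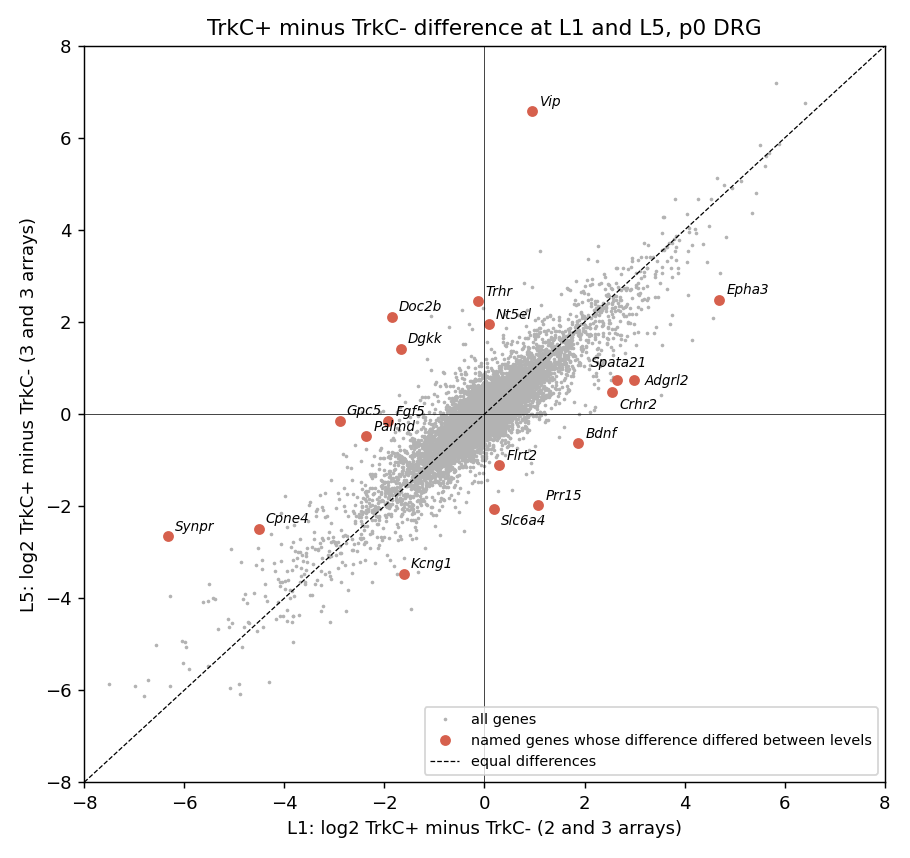
TrkC+ minus TrkC- log2 difference at L1 (horizontal axis, 2 and 3 arrays) against that at L5 (vertical axis, 3 and 3 arrays) for 18193 genes, with the dashed line marking equal differences and red points the named genes whose difference was called unequal. Most genes lie along the line, Vip lies far above it (0.96 and 6.58), and Bdnf, Prr15, Doc2b and Dgkk have opposite signs at the levels.

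**Figure D5:**
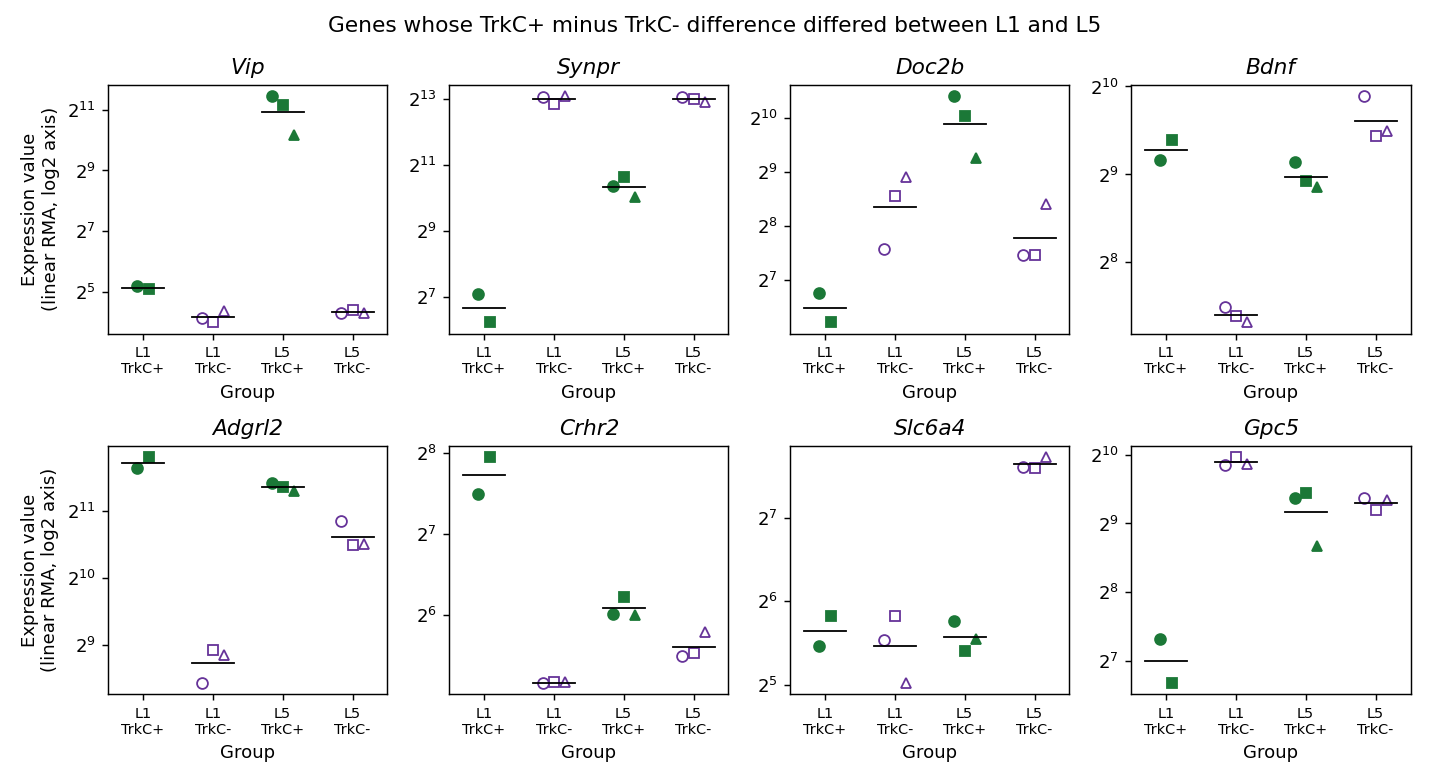
Expression value (linear RMA, log2 axis) of 8 genes in each array of L1 and L5 TrkC+ (filled green) and TrkC- (open purple) cells, with the horizontal line at the mean of the log2 values. Vip and Doc2b are highest in L5 TrkC+ cells, Synpr and Gpc5 lowest in L1 TrkC+ cells, Bdnf and Adgrl2 lowest in L1 TrkC- cells, Slc6a4 highest in L5 TrkC- cells and Crhr2 highest in L1 TrkC+ cells.

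Level was also compared within each population. Between L1 and L5 proprioceptors 179 probe sets (0.397%) differed, 59 higher and 120 lower at L1, and between the TrkC- populations 72 (0.160%) differed, 10 higher and 62 lower at L1. Without L1 TrkC+ array 1 the first count was 27, and without L5 TrkC- array 1 the second was 29. Of the 28 Hox genes none was called between levels in TrkC+ cells, and 3 were lower at L1 in TrkC- cells. Hoxc10 measured 93.8, 97.7 and 112 in L1 TrkC- cells against 539, 505 and 511 at L5, a difference of -2.36 (SE 0.22, adjusted p = 0.00166). In TrkC+ cells it measured 357 and 668 at L1 against 682, 928 and 1044 at L5 (difference -0.83, adjusted p = 0.253). Hoxa10 (-1.44) and Hoxd9 (-1.94) were the other 2 called in TrkC- cells, and in TrkC+ cells both were also lower at L1 by value, -0.90 and -1.16, without passing the test. These 3 genes lie in the part of the Hox clusters used at caudal levels, and L1 lies rostral to L5.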

How the data were processed

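The authors sorted TrkC GFPon and GFPoff cells from p0 DRG, hybridised amplified RNA to Mouse Genome 430 2.0 arrays and normalized them with RMA in the affy package of R 2.9. The deposited values are linear intensity values per probe set. Whether all arrays were normalized together, and a genome build, are not given in the sources used here. MAS5 present calls were not used. Values were taken as log2 with no pseudocount, and 64 control probe sets were left out. Of 45037 probe sets, 34945 name 1 gene, 932 several and 9160 none in the platform annotation, and symbols were updated through Entrez IDs. The brightest probe set over the 11 L1 and L5 arrays stood for a gene. limma 3.58.1 in R 4.3.3 fitted group means to these 11 arrays, so that L5 arrays share in the estimate of spread. The 16 pooled p0 arrays, wild-type and mutant, were fitted separately, so that the mutant arrays share in the estimate of spread for the pooled contrast. Calls used an adjusted p under 0.05. The fits were tested on simulated data. Groups follow the sample titles. The lists and members were chosen with earlier results of these data known, and the text names members of the 3 neuronal marker lists, up to 15 largest rises and falls, up to 6 called members of other lists, up to 10 genes per direction for the L1 and L5 contrast, called Hox genes and genes the study discusses. The number of arrays limits the precision. Alternatives covered the arrays fitted, scaling, filter, spread model, pseudocount, probe set, replicate block, the methods' t-test and leaving out each array.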

Additional observations from a re-analysis of the deposited data

Results flagged for a closer look

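The difference between TrkC+ and TrkC- cells was itself tested between L1 and L5, and 30 probe sets passed. The values that follow are the L1 difference minus the L5 difference on the log2 scale, from limma with Benjamini-Hochberg adjustment. More negative at L1 were Vip (-5.62), Doc2b (-3.97), Synpr (-3.67), Dgkk (-3.10), Gpc5 (-2.75), Trhr (-2.58), Cpne4 (-2.03), Palmd (-1.88), Nt5el (-1.87) and Fgf5 (-1.76). More positive at L1 were Prr15 (3.06), Bdnf (2.51), Slc6a4 (2.24), Adgrl2 (2.24), Epha3 (2.21), Crhr2 (2.08), Spata21 (1.90), Kcng1 (1.86) and Flrt2 (1.40). Of the 30 probe sets, 14 had opposite signs at the levels, and 9 of these were called at both. Groups of 2 or 3 arrays are too small to test a single array as an outlier.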

How the results depend on the processing

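With the methods' t-test after Benjamini-Hochberg, 1265 probe sets were higher and 1129 lower at L1, and without both L1 TrkC+ array 1 and L1 TrkC- array 3, chosen after seeing the data, 2234 and 2037. Leaving out 1 array gave 2829 to 4286 higher and 2670 (without L1 TrkC+ replicate 1) to 4340 lower. The count of unequal differences between L1 and L5 (30) was 49 with all 27 arrays, 86 with an intensity trend, 49 with a pseudocount of 16, 2 without both arrays, and 7 to 50 with 1 array left out. The 27 arrays are all p0 arrays and include the mutant pooled ones. The level count in TrkC+ (179) was 303 with the trend, 111 with the replicate block, 21 without both arrays, and 27 to 212 with 1 array left out. That in TrkC- (72) was 147 with the trend, 116 with the pseudocount, 28 without both arrays, and 29 to 76 with 1 array left out. The causes were not tested. Counts at the study's thresholds stayed within 1.5 times. Leaving out an L1 TrkC+ array leaves 1, assumed to vary like the other groups.

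Signs reversed for Shc4 with the replicate block (-0.10), for Adcyap1 (0.11) and Prph (0.20) on the probe set of largest variance, for Whrn without L1 TrkC+ replicate 1 (-0.0033) and without both arrays (-0.032), for Nt5el without L1 TrkC+ replicate 2 (-0.22) or L1 TrkC- replicate 1 (-0.057), for Trhr without L1 TrkC+ replicate 2 (0.026) and for Slc6a4 without L1 TrkC- replicate 3 (-0.038). Over the fits with 1 array left out, the highest or lowest values of these genes on the other side were 0.38 for Nt5el, 0.36 for Slc6a4, -0.27 for Trhr and 0.26 for Whrn. The L1 calls of Trpa1 and Tac1 were each lost under 12 alternatives and that of Vip under 14 of 21.

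The replicate block gave 4000 higher and 3917 lower at L1, 24 unequal differences and 64 level calls in TrkC-. Deviations of same-numbered arrays correlated at -0.07 to 0.00623 at L1, at 0.0626 to 0.23 between the TrkC- arrays of L1 and L5, and at -0.07 to 0.23 over 15 pairs, against -0.169 to 0.0765 for other numbers. The negative values of same-numbered pairs all involved L1 TrkC+, whose arrays deviate from their mean by equal and opposite amounts. Among L1 TrkC-, L5 TrkC+ and L5 TrkC- arrays, every same-numbered pair was positive, at 0.0585 to 0.23. Not every pair passed 0.1, so pairing by number was neither taken as shown nor modelled in the main fit.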
